A study of Mus musculus with 10 samples.

Results

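The genes examined here encode the machinery with which osteoclasts and lysosomes acidify a compartment and digest protein: the vacuolar proton pump (V-ATPase), the cathepsins, and 4 partners of acid secretion and resorption. They were taken from the array by name: every gene probe named Atp6v0, Atp6v1 or Atp6ap followed by a subunit letter or number, together with Tcirg1, Clcn7, Ostm1, Car2, Acp5 and a list of cathepsins. That gave 59 of the 41174 gene probes on the array, for 41 of 21142 named genes: 25 V-ATPase genes, 12 cathepsins and Clcn7, Ostm1, Car2 and Acp5. All 59 probes passed the filter on dim probes. Ctsa, also listed, had no probe under that name; the array calls it Ppgb, and its 3 probes had differences of -0.05, -0.05 and 0.30 on the log2 scale (SE 0.11, 0.11 and 0.13). The measurements came from femurs of 10 male ICR mice aged 6 months, an outbred stock, with 1 Cy3-labelled Agilent array per animal. Control mice (n = 5) walked freely, and unloaded mice (n = 5) were suspended by the tail in a head-down tilt so that the hindlimbs carried no weight, and bone was taken after 24 h. The labels name no transgene or drug for either group, and assignment to the groups was random. They name no step that removes marrow, and in such a bulk sample fewer cells of a type and less RNA per cell cannot be told apart.

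An osteoclast seals off a patch of bone and pumps protons into it. The V-ATPase has a cytosolic V1 sector, which hydrolyses ATP, and a membrane V0 sector, through which protons pass; carbonic anhydrase II supplies the protons, the exchanger ClC-7 with its partner Ostm1 carries chloride, and cathepsin K then cuts the exposed collagen while tartrate-resistant acid phosphatase, the product of Acp5, is secreted alongside. The same pump and most cathepsins serve the lysosomes of every cell, and marrow macrophages and granulocytes are rich in them. Loss of Tcirg1, Clcn7, Ostm1, Car2 or Ctsk is known to cause bone diseases with too little resorption.

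Signals are given as log2 with the array's own 75th percentile at 0. A difference is the unloaded mean less the control mean, so a positive one is a higher signal after unloading. The percentile lay between 637 and 903 intensity units, and 89.8% to 95.5% of an array's spots were well above background. The arrays lay on 3 slides: 4 controls on slide 1, control 5 with unloaded 1, 2 and 3 on slide 2, and unloaded 4 and 5 on slide 3, so slide largely follows group. The array of unloaded 5 stood apart, with a median correlation to the others of 0.973 where the other 9 arrays had 0.986 to 0.988. All 8 osteoclast markers tested (among them Calcr, Ocstamp, Dcstamp, Oscar and Mmp9) and all 9 osteoblast and osteocyte markers were well above background on all 10 arrays. So were the tested markers of macrophages, neutrophils, erythroid cells and skeletal muscle. As most spots pass that flag, it cannot show which cell types were present. In control 1, for example, Bglap of osteoblasts had a signal of 6.8, Mpo of neutrophils 7.3, Hbb-b1 of erythroid cells 8.2 and Myh4 of muscle 5.3. These lie far above the 75th percentile, so the RNA of that femur came from bone, marrow and muscle together.

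After 24 h of unloading none of the 41 genes differed past the test. The count called by limma at an adjusted p below 0.05 was 0 of 41, where 0.00490% of 20421 genes with a tested probe (1 gene) was called. At an unadjusted p below 0.05 limma gave 2 of 41, Ctsf higher and Ctsc lower, where 15.9% of all genes reached it, 10.1% higher and 5.80% lower; the share among the resorption genes, 2 of 41, lay below that background. For 0 of 41 genes did the groups fail to overlap, against 1.53% of all genes with every unloaded animal above every control and 1.76% with every one below. Differences were positive for 23 genes and negative for 18, and 38.8% of all genes were negative. The median difference was 0.03 for the 41 genes and 0.06 for all genes, and the differences ran from -0.42 to 0.29, at most 1.34-fold in either direction. The 41 genes were brighter, with a median signal of 1.52 against -0.62 for all genes, and differences varied with signal. Genes with a mean signal between 1 and 3 had a median difference of -0.07, with 33.1% positive. Those above 3 had -0.01, with 48% positive. The count at an unadjusted p below 0.05 rested on single arrays. It was 4 without unloaded 1 or without unloaded 2, and 1 without control 1, 2, 3 or 5 or unloaded 3 or 5. With slide as a fixed block or within slide 2 it was 0, with slide as a random block 3, and with the replicate number as a block 1.

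**Figure D1:**
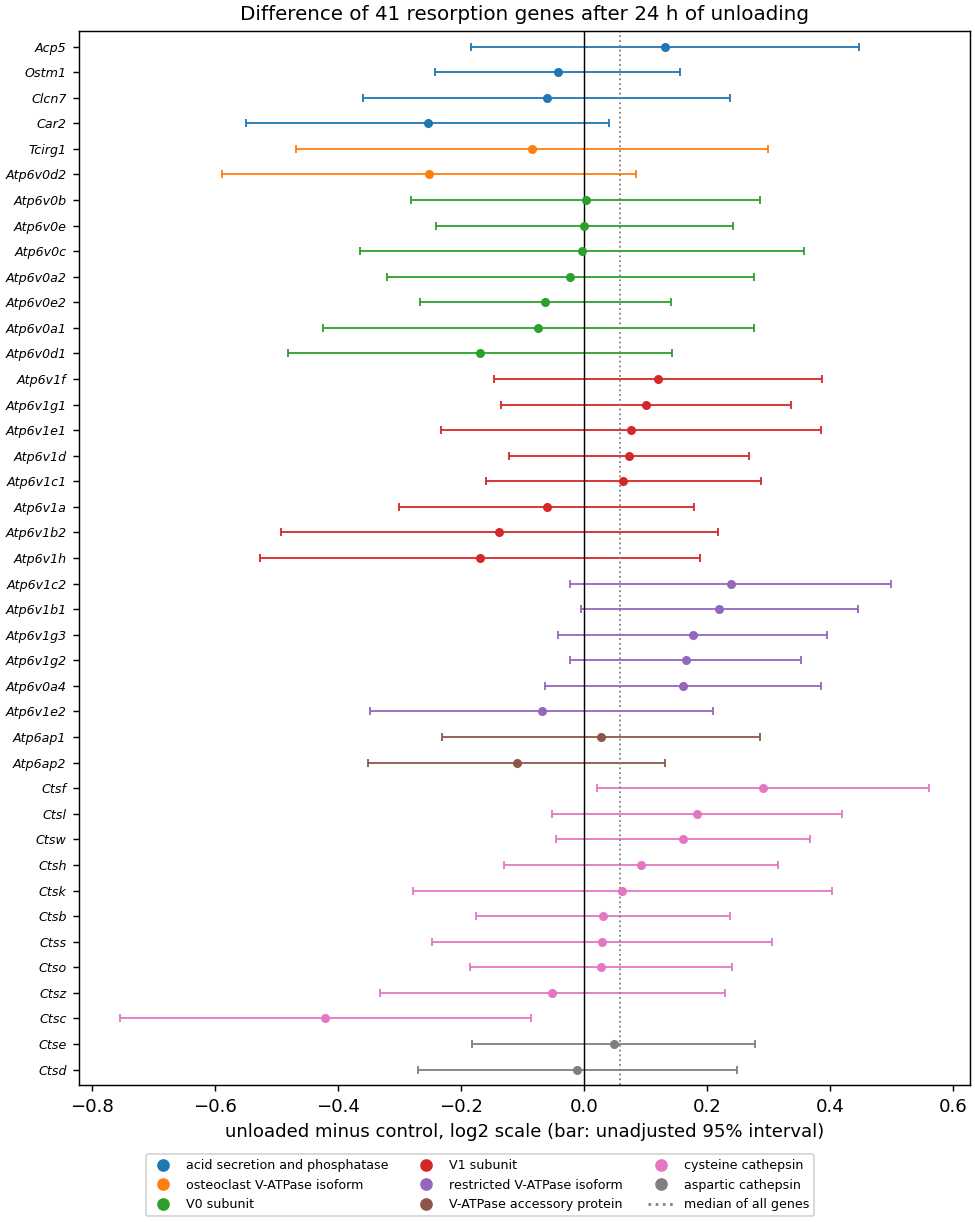
Difference between 5 unloaded and 5 control femurs for the 41 genes, on the log2 scale, with the unadjusted 95% interval from limma as a bar; genes are coloured by role and the dotted line is the median of all genes, 0.06. Intervals of 39 genes include 0, and only those of Ctsf and Ctsc do not; under median centring the sign of 12 genes near 0 turns.

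The enzymes that define the osteoclast did not separate the groups. Acp5 had signals of 5.40, 5.19, 5.23, 4.90 and 5.15 in controls 1 to 5 and of 5.17, 5.76, 5.17, 5.49 and 4.94 in unloaded animals 1 to 5. Unloaded 2 and 4 lay above every control, and the other unloaded animals lay within the control range. The means were 5.17 ± 0.18 (SD, n = 5) and 5.31 ± 0.32 (SD, n = 5), a difference of 0.13 (SE 0.15, 95% interval -0.18 to 0.45, limma adjusted p = 0.632). Ctsk, the collagenase of resorption, had signals of 4.51, 4.23, 4.35, 3.95 and 4.27 in control and 4.00, 4.90, 4.202, 4.35 and 4.17 in unloaded femurs. Only unloaded 2 left the control range. The difference was 0.06 (SE 0.16, 95% interval -0.28 to 0.40, limma adjusted p = 0.847), with -0.08 when unloaded 2 was left out and -0.03 under median centring. The intervals of Ctsk and Acp5 leave room for changes of up to 0.40 and 0.45 on the log2 scale.

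The osteoclast forms of the V-ATPase had lower means with unloading, again without passing the test. Tcirg1, the a3 subunit that directs the pump to the ruffled border, had 1.55, 1.61, 1.71, 1.37 and 1.59 in controls and 1.49, 2.09, 1.34, 1.65 and 0.84 in unloaded animals. Unloaded 2 was the highest of all 10 femurs and unloaded 5 the lowest. The SD was 0.12 in control and 0.45 in unloaded animals (n = 5 each), and the difference of -0.08 (SE 0.18, limma adjusted p = 0.812) became 0.07 without unloaded 5 and 0.05 within slide 2. Atp6v0d2, a stalk subunit that osteoclasts use in fusion and acid secretion, had -0.79, -0.97, -1.11, -1.25 and -1.24 in controls and -1.25, -0.85, -1.45, -1.26 and -1.80 in unloaded animals. The 2 lowest values belonged to unloaded 3 and 5, and unloaded 2 lay among the controls. Its difference was -0.25 (SE 0.16, 95% interval -0.59 to 0.08, limma adjusted p = 0.405), with -0.13 without unloaded 5 and 0.05 within slide 2, which holds 1 control. Summed over the 8 osteoclast markers, the log2 signal ran from 5.98 to 6.15 in control and from 5.76 to 6.46 in unloaded femurs. In control 1 Itgb3 had 5.2 and Mmp9 4.1, where Ocstamp had 2.3 and Calcr -0.3. The sum thus follows mainly Itgb3 and Mmp9 and says little about the other markers. Of the 8 differences 6 were positive, 1 with an unadjusted p below 0.05 (Ocstamp at 0.37), and 0 were called by limma. Over all genes 38.8% had a negative difference and 10.1% such a p on the higher side. Of the 8 markers 3 (Itgb3, Mmp9 and Nfatc1) stand in a pathway list as well, and the part of osteoclast number in the pump genes was not tested.

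Chloride transport and proton supply gave a similar picture. Clcn7 had 0.65, 0.52, 0.50, 0.38 and 0.46 in controls and 0.50, 0.83, 0.31, 0.59 and -0.03 in unloaded animals, with unloaded 2 at the top and unloaded 5 at the bottom as for Tcirg1. The difference was -0.06 (SE 0.14, limma adjusted p = 0.827), but 0.06 without unloaded 5 and 0.09 within slide 2. Ostm1, the partner that stabilises ClC-7, varied least, with 2.65, 2.64, 2.73, 2.50 and 2.70 in controls and 2.51, 2.80, 2.49, 2.56 and 2.65 in unloaded animals and a difference of -0.04 (SE 0.09, 95% interval -0.24 to 0.16, limma adjusted p = 0.814). Under quantile normalization that difference was 0.01. Car2, carbonic anhydrase II, had 5.25, 5.49, 5.77, 5.25 and 5.40 in controls and 5.31, 5.31, 5.09, 5.39 and 4.77 in unloaded animals. The groups overlapped, with unloaded 3 and 5 below every control. The difference was -0.25 (SE 0.14, 95% interval -0.55 to 0.04, limma adjusted p = 0.353), with -0.15 without unloaded 5 and -0.16 within slide 2. Car2 is also an enzyme of red cells. Of 9 erythroid markers 6 had negative differences, against 38.8% of all genes. Of these, 1 had an unadjusted p below 0.05 (Epb4.2 at -0.30), against 5.80% of all genes on the lower side, and 0 were called. The log2 of the summed signal of the 7 measured on all 10 arrays ran from 8.54 to 8.79 in control and from 8.69 to 8.83 in unloaded femurs. The part of red cells in the value of Car2 was not tested.

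**Figure D2:**
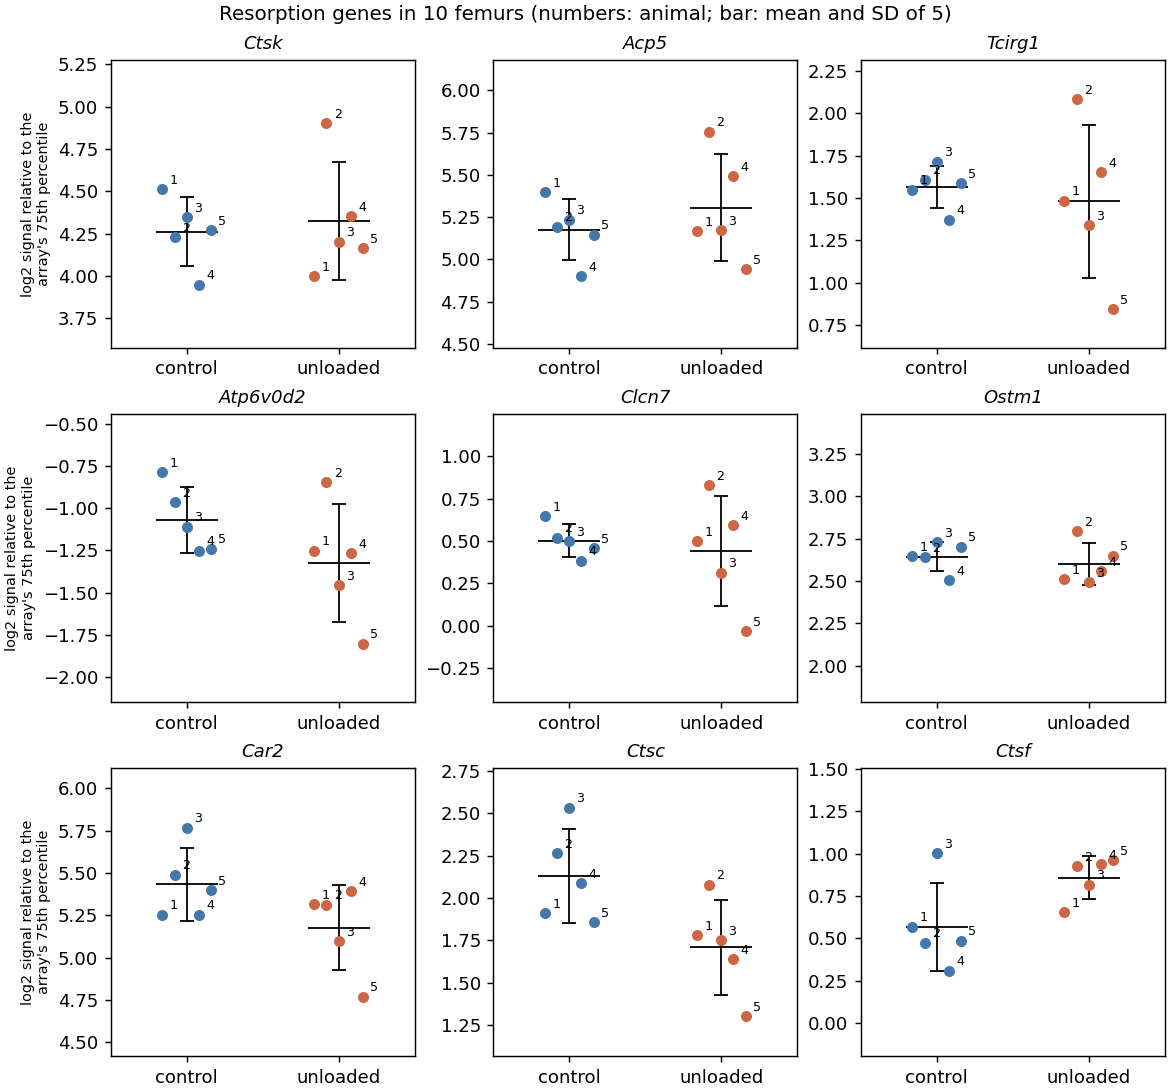
Log2 signal relative to the array's 75th percentile for 9 genes in 5 control (blue) and 5 unloaded (orange) femurs; each point is 1 animal with its number, and the bar is the group mean with its SD. All vertical axes have the same span, and in all 9 panels the groups overlap; unloaded 2 and unloaded 5 mark the ends of the unloaded group for Acp5, Tcirg1, Atp6v0d2, Clcn7 and Ctsc.

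The common subunits of the pump divided between both directions. Of 7 V0 subunits found in most cells (Atp6v0a1, Atp6v0a2, Atp6v0b, Atp6v0c, Atp6v0d1, Atp6v0e and Atp6v0e2) 2 had a positive and 5 a negative difference, from -0.17 for Atp6v0d1 to 0.0025 for Atp6v0b. Of 8 V1 subunits found in most cells (Atp6v1a, Atp6v1b2, Atp6v1c1, Atp6v1d, Atp6v1e1, Atp6v1f, Atp6v1g1 and Atp6v1h) 5 were positive and 3 negative, from -0.17 for Atp6v1h, the regulatory H subunit, to 0.12 for Atp6v1f. The catalytic A subunit, Atp6v1a, had -0.06 (SE 0.11) and its partner Atp6v1b2 -0.14 (SE 0.17). None of these 15 genes had an unadjusted p below 0.05, and their limma adjusted p lay between 0.533 and 1.00. The accessory proteins Atp6ap1 and Atp6ap2, the latter also called the prorenin receptor, had 0.03 (SE 0.12) and -0.11 (SE 0.11). Atp6v0e was measured on 9 arrays because its spot on control 4 was marked as an outlier. Over all 25 V-ATPase genes the median difference was 0.0001, with 13 positive and 12 negative, and it was -0.10, with 7 positive and 18 negative, when each array was centred on its median.

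The V-ATPase genes with the smallest p-values were isoforms best known from kidney, inner ear, testis or brain rather than from bone. Atp6v1b1, the B1 subunit of acid-secreting epithelia, had -0.85, -1.09, -1.01, -0.68 and -0.91 in controls and -0.57, -0.75, -0.76, -0.84 and -0.52 in unloaded animals. Unloaded 1 and 5 were above every control. Its difference was 0.22 (SE 0.10, limma adjusted p = 0.318, unadjusted p = 0.0548). Atp6v1c2 had -2.17, -2.25, -2.33, -2.06 and -2.10 in controls and -2.24, -2.20, -1.77, -1.80 and -1.72 in unloaded animals, where unloaded 3, 4 and 5 were above the controls and unloaded 1 and 2 among them. The difference was 0.24 (SE 0.12, limma adjusted p = 0.335), but 0.03 within slide 2. Atp6v1g2, a neuronal G subunit, had -1.43, -1.42, -1.54, -1.32 and -1.34 in controls and -1.20, -1.16, -1.38, -1.23 and -1.25 in unloaded animals, so that only unloaded 3 lay within the control range. The difference was 0.17 (SE 0.09, limma adjusted p = 0.347), with -0.08 for its other probe. Atp6v1g3 had -0.44, -0.38, -0.70, -0.40 and -0.42 in controls and -0.34, -0.49, -0.09, -0.30 and -0.24 in unloaded animals, with a difference of 0.18 (SE 0.10, limma adjusted p = 0.377). Its other probe, well above background on all 5 controls but on 2 of 5 unloaded arrays, had -0.37 (SE 0.13), the opposite sign. Together with Atp6v0a4 (0.16, SE 0.10) and Atp6v1e2 (-0.07, SE 0.13), 5 of these 6 restricted isoforms were positive, with a median of 0.17. All 6 lay below 0 on the signal scale, and genes with low signals had positive differences as a whole: the median was 0.14 over 8598 genes with a mean below -1 and 0.08 over 3972 genes between -1 and 0, but -0.07 over 3452 genes between 1 and 3. Under quantile normalization Atp6v1b1, Atp6v1c2 and Atp6v1g2 had 0.15, 0.13 and 0.07.

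The cathepsins held both genes with an unadjusted p below 0.05. Ctsc, the dipeptidyl peptidase that activates the serine proteases of granulocytes and cytotoxic lymphocytes, had 1.91, 2.27, 2.53, 2.09 and 1.86 in controls and 1.78, 2.08, 1.75, 1.64 and 1.30 in unloaded animals. Unloaded 1, 3, 4 and 5 were below every control and unloaded 2 was among them. The means were 2.13 ± 0.28 (SD, n = 5) and 1.71 ± 0.28 (SD, n = 5), a 1.34-fold lower signal in unloaded femur (difference -0.42, SE 0.16, 95% interval -0.76 to -0.09) that did not pass the test (limma adjusted p = 0.261, range over 22 alternatives 0.114 to 1.00). Without unloaded 5 it was -0.32, and within slide 2, where control 5 had the lowest control value, it was 0.01. Beside it, 7 of 11 macrophage and monocyte markers had negative differences, 3 of them with an unadjusted p below 0.05 (Cx3cr1, Ccr2 and Mrc1) and 0 called. Over all genes 38.8% had a negative difference and 5.80% such a p on the lower side. The summed log2 signal of the 11 ran from 5.81 to 6.52 in control and from 5.87 to 6.34 in unloaded femurs. In control 1 Ly6c1 had 5.4, where Ccr2 had 1.0, Mrc1 0.1 and Cx3cr1 -1.3. Cx3cr1, Ccr2 and Mrc1 thus add little to that sum. Of 10 neutrophil markers 5 had negative differences, 1 of them with an unadjusted p below 0.05 (Csf3r at -0.48), and 0 were called. For Csf3r and Ccr2 every unloaded animal lay below every control, against 1.76% of all genes. The summed log2 signal of the 9 neutrophil markers measured on all 10 arrays ran from 9.39 to 9.61 in control and from 9.48 to 9.57 in unloaded femurs. In control 1 Csf3r had 1.0 and S100a9 8.2, so Csf3r adds little to that sum. What either cell type contributes to the value of Ctsc was not tested.

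Ctsf, a lysosomal cysteine protease, had 0.57, 0.47, 1.00, 0.31 and 0.48 in controls and 0.65, 0.93, 0.82, 0.94 and 0.96 in unloaded animals. Every unloaded value was above 4 of the 5 controls, and control 3 was above them all. The means were 0.57 ± 0.26 (SD, n = 5) and 0.86 ± 0.13 (SD, n = 5), a difference of 0.29 (SE 0.13, 95% interval 0.02 to 0.56), 1.22-fold, with a limma adjusted p of 0.293. Within slide 2 it was 0.31 and without unloaded 5 it was 0.27. Ctsl, a broad endopeptidase of lysosomes, had 3.81, 4.03, 4.12, 3.77 and 3.82 in controls and 3.90, 4.22, 4.00, 4.02 and 4.30 in unloaded animals, with unloaded 2 and 5 above every control. The difference was 0.18 (SE 0.11, limma adjusted p = 0.389). Ctsw, a cathepsin of cytotoxic T and NK cells, had -0.90, -0.88, -0.64, -0.89 and -0.76 in controls and -0.88, -0.60, -0.62, -0.62 and -0.56 in unloaded animals. Only unloaded 1 lay within the control range, and the difference was 0.16 (SE 0.10, limma adjusted p = 0.389), but 0.06 within slide 2. Of 9 T and NK cell markers 7 had positive differences, where 38.8% of all genes were negative. Of the 7, 3 had an unadjusted p below 0.05 (Cd8b1 at 0.51, Prf1 at 0.27 and Cd3g at 0.23), against 10.1% of all genes on the higher side. By limma 0 were called. Their summed signal ran from 3.33 to 3.76 in control and from 3.47 to 3.66 in unloaded femurs, and their part in the value of Ctsw was not tested. Ctsw, Prf1 and Cd3g lay below 0 on all 10 arrays, where positive differences were common. Of all genes with a mean between -1 and 0, 65.7% were positive, and of those below -1, 78.6%.

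The remaining cathepsins stayed close to 0. The lysosomal cysteine proteases Ctsb, Ctsh, Ctso, Ctss and Ctsz had differences of 0.03, 0.09, 0.03, 0.03 and -0.05 (SE between 0.10 and 0.13). Ctss is the cathepsin that trims the invariant chain in antigen-presenting cells. The aspartic proteases Ctsd and Ctse had -0.01 (SE 0.12) and 0.05 (SE 0.11). Over the 12 cathepsins the median difference was 0.04, with 9 positive and 3 negative; with each array centred on its median it was -0.06, with 3 positive and 9 negative. The genes whose sign changed with that scaling were Ctsb, Ctse, Ctsh, Ctsk, Ctso and Ctss.

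Unloaded animals differed more from each other than controls did in most of these genes. The SD was larger in unloaded than in control femurs for 31 of 41 genes, 75.6%, where it was larger for 60.8% of all genes. For the V-ATPase genes the median SD was 0.143 in control and 0.232 in unloaded animals, for the cathepsins 0.190 and 0.147, and over all genes 0.163 and 0.193. Unloaded 2 and unloaded 5 often stood at the ends: in 15 of 41 genes, 36.6%, unloaded 2 was the highest and unloaded 5 the lowest of the unloaded animals, which held for 15.3% of all genes. This pair was named after its values were seen. Unloaded 5 was the lowest in 17 of 41 genes, 41.5%, against 27.2% of all genes. It was the highest in 14, 34.1%, against 35.9% of all genes. Between unloaded 2 and unloaded 5 Tcirg1 differed 2.36-fold, Atp6v1h 2.02-fold, Atp6v1b2 2.00-fold, Atp6v0c 1.97-fold, Atp6v0a1 1.96-fold, Atp6v0d2 1.94-fold, Clcn7 1.82-fold and Acp5 1.75-fold. Ctsk, highest in unloaded 2 as well, was lowest in unloaded 1, 1.87-fold apart. The spread was not shared by all: Atp6v1d, Atp6v1g2, Ctsd, Ctsf and Ctso were among the 10 genes with the smaller SD in unloaded animals. Without unloaded 5 the SD was larger in unloaded animals for 26 of 41 genes, where 48.6% of all genes had it so, and without unloaded 2 for 24, against 53.9%. No test of the SDs was made, and the part that the array of unloaded 5, which differs from the others across the whole array, takes in them was not tested. Unloaded 2 lay on slide 2 and unloaded 5 on slide 3, while 4 of 5 controls shared slide 1. Spread between slides and spread between animals therefore cannot be told apart here.

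**Figure D3:**
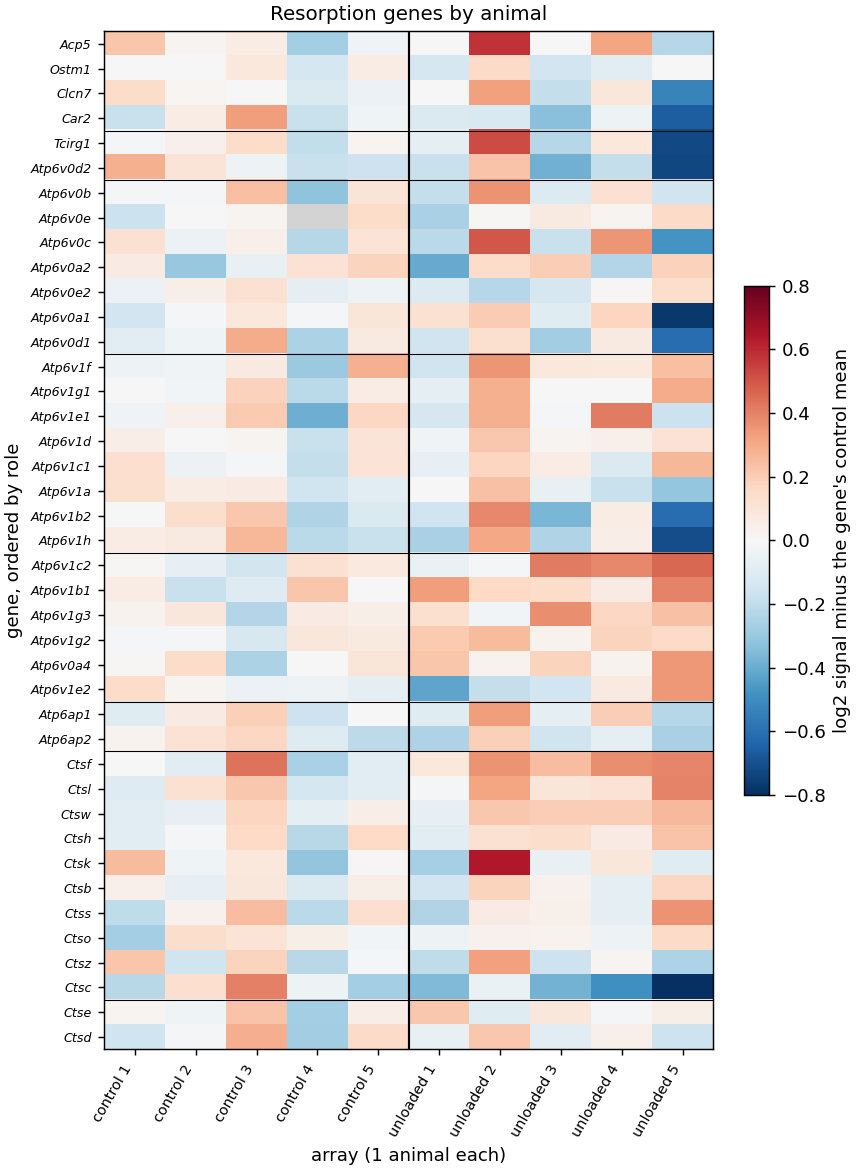
Log2 signal of each of the 41 genes in each of the 10 femurs, minus that gene's mean in the 5 controls; red is above and blue below that mean, black lines part the roles, and grey marks the 1 value left out. The column of unloaded 2 is mostly red, and that of unloaded 5 is blue for Tcirg1, Atp6v0d2, Clcn7, Atp6v0c, Atp6v0a1, Atp6v0d1, Atp6v1b2, Atp6v1h and Ctsc and red for most restricted isoforms and for Ctsf, Ctsl and Ctss.

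The promoters of the 41 genes were searched, where given, for the letters CACGTG, the E-box core that TFEB, the master factor of lysosomal genes, and its relatives bind. RefSeq promoters of build GRCm38.p6 (250 bases before to 50 after a start) were at hand for 30 of the 41 genes. The letters, which read the same on both strands, occurred in 8 of the 30 (26.7%: Atp6v0b, Atp6v0d1, Atp6v0e, Atp6v1a, Clcn7, Ctsd, Ctsf and Ctsl) and in 8.09% of the promoters of 27025 genes. The same core extended by GT before it and AC after it, again a palindrome, occurred in 0 of 30 and in 0.37%. The 250 bases before the start are printed for a chloride exchanger, for subunits of each pump sector, for the main aspartic cathepsin and for Ctsf, with the letters searched in capitals.
Clcn7 (GRCm38.p6 chr17:25133141-25133390, + strand, 15 bases before the start): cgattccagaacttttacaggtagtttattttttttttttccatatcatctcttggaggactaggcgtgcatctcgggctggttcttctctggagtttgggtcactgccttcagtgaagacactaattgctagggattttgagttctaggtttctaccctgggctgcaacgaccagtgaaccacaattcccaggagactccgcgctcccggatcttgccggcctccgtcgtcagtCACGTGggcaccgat
Atp6v0b (GRCm38.p6 chr4:117887330-117887579, - strand, 36 and 18 bases before the start): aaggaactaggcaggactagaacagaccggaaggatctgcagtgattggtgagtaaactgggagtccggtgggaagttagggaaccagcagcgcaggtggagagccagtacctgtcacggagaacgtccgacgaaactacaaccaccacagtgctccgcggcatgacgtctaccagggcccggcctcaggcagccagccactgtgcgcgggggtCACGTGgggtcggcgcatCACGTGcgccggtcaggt
Atp6v1a (GRCm38.p6 chr16:44139260-44139509, - strand, 131 bases before the start): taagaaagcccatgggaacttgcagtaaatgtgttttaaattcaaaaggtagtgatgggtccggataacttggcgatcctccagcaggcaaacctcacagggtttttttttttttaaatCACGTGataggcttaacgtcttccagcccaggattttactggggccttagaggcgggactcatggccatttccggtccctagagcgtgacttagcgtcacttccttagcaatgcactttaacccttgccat
Ctsd (GRCm38.p6 chr7:142387828-142388077, - strand, 245 and 98 bases before the start): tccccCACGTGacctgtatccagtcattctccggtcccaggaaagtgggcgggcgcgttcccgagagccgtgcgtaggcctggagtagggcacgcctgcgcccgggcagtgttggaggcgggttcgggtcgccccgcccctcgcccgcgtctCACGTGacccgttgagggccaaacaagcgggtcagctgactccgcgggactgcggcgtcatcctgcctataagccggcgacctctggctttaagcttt
Ctsf (GRCm38.p6 chr19:4854915-4855164, + strand, 79 bases before the start): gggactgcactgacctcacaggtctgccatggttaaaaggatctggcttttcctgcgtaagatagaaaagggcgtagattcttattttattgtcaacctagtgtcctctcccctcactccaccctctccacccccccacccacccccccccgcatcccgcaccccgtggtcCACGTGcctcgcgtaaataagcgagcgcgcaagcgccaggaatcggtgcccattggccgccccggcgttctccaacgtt
Genes with these letters differed in their pattern across the unloaded femurs: Clcn7, Atp6v1a, Ctsd and Atp6v0d1 were highest in unloaded 2 and lowest in unloaded 5, Atp6v0b was highest in unloaded 2 and lowest in unloaded 1, and Ctsf, Ctsl and Atp6v0e were highest in unloaded 5 and lowest in unloaded 1. A match describes the sequence and says nothing about binding in these femurs.

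Several probes of a gene did not always give the same sign. Of 15 genes with more than 1 probe, 6 had all probes on the same side of 0 and 9 did not. Atp6v0a1, the a1 subunit, had the widest disagreement. Its brightest probe (A_51_P142089) had -0.07 (SE 0.16). Probe A_52_P399998, designed on the same transcript, had -0.76, -0.81, -0.97, -0.81 and -0.93 in controls and -0.68, -0.74, -0.56, -0.62 and -0.18 in unloaded animals, all 5 above all 5 controls, with a difference of 0.30 (SE 0.11, unadjusted p = 0.0181, limma adjusted p = 0.262). Probe A_52_P515336, designed on another cDNA of the gene, had -1.15, -0.92, -0.84, -0.87 and -0.90 in controls and -1.12, -1.20, -1.34, -1.26 and -1.50 in unloaded animals. Unloaded 2, 3, 4 and 5 were below every control there, and the difference was -0.35 (SE 0.10, unadjusted p = 0.00400, limma adjusted p = 0.231). Both were named after their values were seen. Among the 59 probes, 0 were called, where 0.00259% of all tested probes was, 6 had an unadjusted p below 0.05, against 16.1%, of which 2 were higher, against 10.2%, and 4 lower, against 5.92%. Of the 59 differences 25 were negative, against 37.4% of all probes. In 1 probe, the Atp6v0a1 probe just given, all unloaded animals were above all controls, against 1.51%. The second probe of Atp6v0e had -0.28 (SE 0.13) beside 0.0001 for the brightest, and that of Atp6v1a -0.32 (SE 0.17) beside -0.06.

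**Figure D4:**
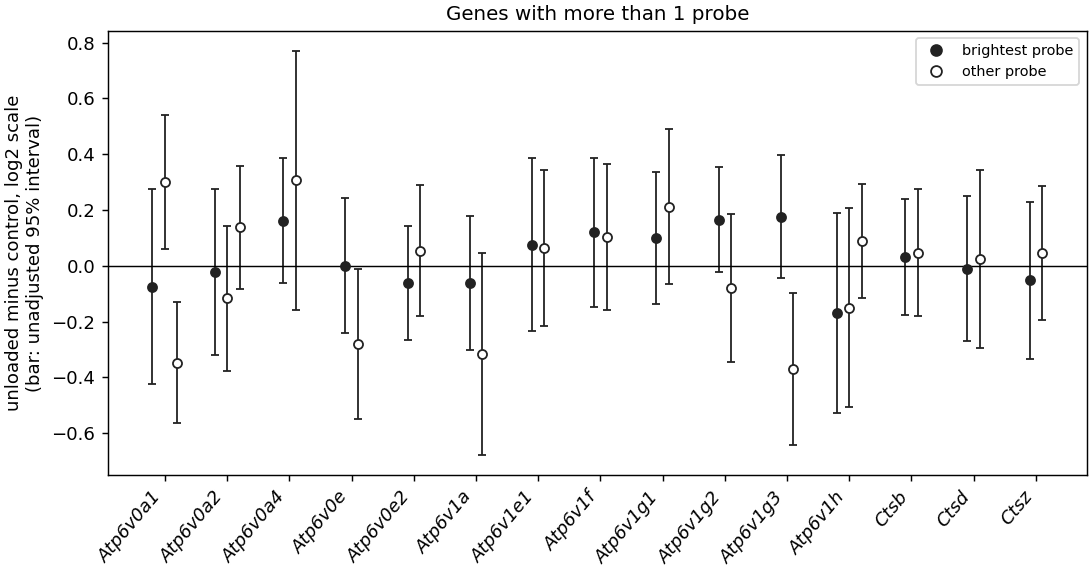
Difference between unloaded and control femurs (log2 scale, 5 arrays each) for every probe of the 15 genes with more than 1 probe; filled points are the brightest probe, open points the others, and bars the unadjusted 95% interval. The 3 probes of Atp6v0a1 lie at -0.07, 0.30 and -0.35 and those of Atp6v1g3 at 0.18 and -0.37, while both probes of Ctsb, Atp6v1e1 and Atp6v1f nearly coincide.

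Genes around this machinery, in 6 lists chosen by function, were not called by limma either, with 0 in each list. Among 11 measured assembly factors and regulators of the V-ATPase, 9 had negative differences, against 38.8% of all genes. Of the 11, 5 had an unadjusted p below 0.05 on the lower side, against 5.80% of all genes. Oxr1, which carries the TLDc domain known to bind the pump, had -0.35 (SE 0.14). Dmxl1 and Dmxl2, which help V1 and V0 to reassemble, had -0.42 (SE 0.18) and -0.26 (SE 0.11). Ncoa7, another TLDc protein, had -0.24 (SE 0.10) and Tm9sf4 -0.34 (SE 0.16). Their adjusted p lay between 0.277 and 0.307, and the last pair was named after its values were seen. Without unloaded 5 the differences of Dmxl1, Tm9sf4 and Oxr1 were -0.25, -0.21 and -0.25, and those of Dmxl2 and Ncoa7 -0.29 and -0.25. The mean log2 signal of the 11 ran from -0.16 to -0.05 in control and from -0.41 to -0.14 in unloaded femurs. By that mean the groups overlapped narrowly. The log2 of their summed signal, in which the brightest genes weigh most, ran from 3.81 to 3.92 in control. In unloaded femurs that sum ran from 3.65 to 3.76, below every control. Among single genes, 1.76% of all had every unloaded animal below every control. In control 1 Ncoa7 had 2.5, Rnasek 1.5 and the next, Vma21, 0.5. Ncoa7 and Rnasek thus weigh most in the sum, and it does not describe the list as a whole. The other membrane and acid partners of resorption divided into 12 positive and 7 negative, with 0 of 19 at an unadjusted p below 0.05; Src had 0.21 (SE 0.13; 0.13 without unloaded 5), Plekhm1 -0.16 (SE 0.10) and Car3, a carbonic anhydrase of muscle and fat, -0.42 (SE 0.22; -0.27 without control 2). Of 9 cysteine protease inhibitors and legumain, 2 had an unadjusted p below 0.05, both higher, against 10.1% of all genes on that side. These were the stefins Stfa1 and Stfa2, at 0.51 (SE 0.16) and 0.42 (SE 0.15), near-identical neighbours whose probes may share signal. Stfa3 had 0.27 (SE 0.14). Cst3, the main extracellular inhibitor of cathepsins, was named beyond the 3 genes with the smallest p and had -0.02 (SE 0.13). Of 30 other lysosomal hydrolases and membrane proteins 0 reached that p, with 12 positive and 18 negative. Of 10 genes of lysosomal enzyme sorting 1 did, against 5.80% of all genes on the lower side: Gga3, an adaptor of mannose-6-phosphate receptors, at -0.38 (SE 0.11). Of 6 lysosomal and osteoclast transcription factors 1 did, against 10.1% of all genes on the higher side: Tfeb, at 0.26 (SE 0.11, limma adjusted p = 0.292).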

How the data were processed

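Total RNA from 10 femurs was hybridised to 1-colour arrays, 1 per animal. Per the file headers, the authors' deposited spot intensity values came from Agilent Feature Extraction 9.1.3.1 (protocol GE1-v5_91_0806, design 014868), with a background method given only as code 7, detrending within the array and without scaling of one array to another. A series matrix, also deposited, held the same intensity values, at 0.995 to 1.005 of the scanner's, uncentred, with column medians of 261 to 346; it was used as an alternative. Spots of a probe were averaged as log2, 97 gene spots marked as outliers were left out, and the array's 75th percentile was subtracted. Probes entered the test if 4 or more of the 5 arrays in either group were well above background and both groups had 3 or more values; 38629 qualified. None of the 59 probes of the 41 genes had most of its spots marked as saturated on any array. Saturation was not counted for the marker and list probes. The brightest tested probe stood for a gene. Of 41174 gene probes, 22951 were named by accession and 3109 by an older name through RefSeq (GRCm38.p6), 6659 had a current name and 8455 kept the file's. Under R 4.3.3, limma 3.58.1 compared the groups (functions lmFit and eBayes; two-sided; no covariate), and p-values were adjusted over all tested probes by Benjamini-Hochberg; figures used matplotlib 3.10.9. Intervals are unadjusted, and the number of arrays limits precision. Given in full were Ctsk, Acp5, Tcirg1, Clcn7, Ostm1, Car2 and Atp6v0d2 and the 4 V-ATPase genes and 4 cathepsins with the smallest p; other lists give up to 3 genes. Members, lists and this rule were chosen with earlier results of these data known. In simulated arrays of 38550 probes for this comparison, 89% of 100 changes of 1 and 31% of 100 changes of 0.5 on the log2 scale were recovered. Their noise was independent for each probe, without the effects that real arrays or slides share, so these rates may not hold for the measured arrays. Same-numbered animals of both groups deviated together at correlations of -0.14 to 0.18, so the numbers do not pair them. Alternatives covered background correction, scaling, the filter, the series matrix, outlier spots, slide, animal number, how probes stand for a gene and each array left out.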

Additional observations from a re-analysis of the deposited data

Results flagged for a closer look

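Among 81 sets of 5 femurs (each gene in each group with no missing value), 2 held an animal far from the other 4, where chance gives about 1 in 20. For Atp6v1g3, control 3 had a log2 signal of -0.70, below the nearest other control at -0.44. For Ctsw, unloaded 1 had -0.88, below the nearest other unloaded animal at -0.62.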

How the results depend on the processing

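Of the 41 genes 0 were called under any of the 22 alternatives. With an array left out, the median difference ran from -0.038 to 0.058 for the V-ATPase genes and from -0.0071 to 0.087 for the cathepsins. Both moved by less than the SD between animals (0.22 and 0.12), which leaving out 1 of 5 arrays can hardly exceed, so this does not show stability. Both medians were negative under median centring. The count at an unadjusted p below 0.05, 2 in the comparison given, was 0 with slide as a fixed block and within slide 2, 1 with the replicate number as a block, and 1 to 4 with an array left out. With the replicate block only the sign of Atp6v0e (-0.0061) changed, and no call. The count of genes with a larger SD in unloaded animals, whose alternatives were chosen after seeing the data, was 29 with median centring, 32 with quantile normalization and 24 to 34 with an array left out. Signs turned with slide as a fixed block, and equally within slide 2, for Atp6ap2 (0.14), Atp6v0b (-0.088), Atp6v0d2 (0.055), Atp6v0e (-0.20), Atp6v1a (0.15), Atp6v1b2 (0.073), Atp6v1c1 (-0.053), Atp6v1d (-0.032), Atp6v1e1 (-0.12), Atp6v1f (-0.19), Atp6v1h (0.11), Clcn7 (0.090), Ctsb (-0.027), Ctsc (0.013), Ctsh (-0.11), Ctss (-0.18), Ctsz (0.0028), Tcirg1 (0.050); slide 2 holds 1 control, so these values rest on control 5. Median centring, which moves the median of all tested probes from 0.07 to -0.03, turned Atp6ap1 (-0.068), Atp6v0b (-0.093), Atp6v0e (-0.10), Atp6v1c1 (-0.031), Atp6v1d (-0.022), Atp6v1e1 (-0.019), Ctsb (-0.064), Ctse (-0.047), Ctsh (-0.0024), Ctsk (-0.033), Ctso (-0.068), Ctss (-0.066). Quantile normalization turned Atp6v0c (0.038), Atp6v0e (-0.0028), Ostm1 (0.0093), normexp Atp6v0a2 (0.0067), Atp6v0b (-0.0034), Atp6v0c (0.0039), the series matrix Atp6v0e (-0.0021), slide as a random block Atp6v0c (0.0009), and the mean over all probes of a gene Atp6v1g3 (-0.097), Ctsd (0.0062). Leaving out 1 array turned the sign of Atp6ap1 (-0.050 to 0.091), Atp6v0a1 (-0.14 to 0.10), Atp6v0a2 (-0.098 to 0.073), Atp6v0b (-0.086 to 0.063), Atp6v0c (-0.13 to 0.11), Atp6v0e (-0.057 to 0.065), Atp6v1a (-0.14 to 0.0002), Atp6v1e1 (-0.021 to 0.14), Atp6v1e2 (-0.17 to 0.019), Clcn7 (-0.16 to 0.057), Ctsb (-0.0053 to 0.077), Ctsd (-0.080 to 0.062), Ctse (-0.021 to 0.11), Ctsk (-0.083 to 0.14), Ctso (-0.041 to 0.063), Ctss (-0.053 to 0.097), Ctsz (-0.15 to 0.0032), Tcirg1 (-0.24 to 0.075). The cause of these changes was not tested. The filter on dim probes and the outlier spots turned 0 signs. On simulated arrays limma recovered 31% of changes of 0.5 and 89% of changes of 1 on the log2 scale. Smaller changes, the size of those measured here, were not simulated, nor were effects shared within an array or slide. Leaving out arrays for the pathway lists was also added after seeing the data.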
